A study of Homo sapiens with 6 samples.

Results

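The annexin family was followed in 786-O, a line long established from a human clear cell renal carcinoma, as 10 of the 54261 symbols in the count table: ANXA1, ANXA2, ANXA3, ANXA4, ANXA5, ANXA6, ANXA7, ANXA8, its near-copy ANXA8L1, and ANXA11. The family was selected on the counts themselves, because ANXA8L1 was far higher in the PHF8-sgRNA libraries, so for these 10 genes the differences between knockout and control are a description and carry no test. RNA was sequenced from cells given Ctrl-sgRNA (genotype PHF8 wildtype, 3 libraries) and from cells given PHF8-sgRNA (genotype PHF8 knockout, 3 libraries), in both cases with CRISPR-Cas9 and in RPMI-1640 with fetal bovine serum. The labels do not say whether the edited cells were a pool or 1 clone, nor whether the 3 libraries of each group stem from different cultures, so the p-values below reflect library-to-library spread that may be technical. In bulk RNA, more cells of a type and more RNA per cell cannot be told apart.

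Annexins are cytosolic proteins that bind acidic phospholipids of membranes when calcium rises, through a conserved core of annexin repeats, while a variable tail at the N-terminus recruits partners such as S100 proteins. They take part in membrane repair, endosome traffic, exocytosis and the actin cytoskeleton, and some act outside the cell, in blood clotting, fibrinolysis and the end of inflammation. PHF8 is a histone demethylase that binds active promoters and removes repressive methyl marks.

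ANXA8 and ANXA8L1 are nearly the same gene, so the sequences that separate their reads are shown first. ANXA8L1 lies on chromosome 10 from 46375627 to 46391784 (plus strand) and ANXA8 on the same chromosome from 47460162 to 47484158 (minus strand; GRCh38, GENCODE annotation). Their main transcripts have coding sequences of 981 bases each, of which 5 differ (99.5% identical), and 2 of the 5 change an amino acid of the 327. Counted from the first base of the start codon, with the ANXA8 base before the position and the ANXA8L1 base after it, the differences are T16G, C276T, A528G, G530C and T939C. Coding bases 1 to 60 and 499 to 558 hold 3 of them, given below in lower case with the differing bases in capitals.
ANXA8, bases 1 to 60: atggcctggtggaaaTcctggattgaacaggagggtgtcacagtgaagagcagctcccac
ANXA8L1, bases 1 to 60: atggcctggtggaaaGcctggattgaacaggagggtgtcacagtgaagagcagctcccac
ANXA8, bases 499 to 558: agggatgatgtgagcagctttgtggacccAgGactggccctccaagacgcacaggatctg
ANXA8L1, bases 499 to 558: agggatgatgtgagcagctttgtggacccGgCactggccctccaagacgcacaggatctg
Between bases 531 and 938, a stretch of 408, the copies are the same letter for letter.

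A read can be placed in 1 copy only where it spans a difference. Of all windows of 100 bases along the main transcript of ANXA8, 69.0% occur unchanged in ANXA8L1, and of those along ANXA8L1 72.7% occur in ANXA8. With windows of 50 bases these shares are 82.5% and 84.2%, and with 150 bases 57.2% and 60.5%. ANXA2 is the other member with such copies: 38.2% of its 50-base windows and 19.7% of its 100-base windows occur in its processed pseudogene ANXA2P2. ANXA1, ANXA3, ANXA4, ANXA5, ANXA6 and ANXA7 share no window of 50 bases with a gene elsewhere, and ANXA11 shares 0.37% of its own. The sources used here do not give the read length or how reads with several best places were counted, and whether the 786-O genome carries the reference bases at these positions was not tested.

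The members' promoters differ widely in make-up. Promoter sequences were matched for 9 of the 10 members (RefSeq, GRCh38.p14; ANXA8 had no match), and CG pairs, which read the same on both strands, were counted in the 250 bases before each start. The median over 35116 promoters is 11 pairs. ANXA5 has 31 (10.9% of promoters have as many or more), ANXA8L1 has 8 (56.3%) and ANXA1 has 0. The starts are those of RefSeq, so a window can overlap the gene as GENCODE places it. That of ANXA8L1 runs from 46375526 to 46375775, and the GENCODE gene begins at 46375627. The windows of ANXA1 and ANXA5 are shown, 5′ to 3′ with CG in capitals, because these members differed in opposite directions and stand at the 2 ends of the CG counts among members whose groups did not overlap.
ANXA1 (chr9:73151615-73151864, plus strand): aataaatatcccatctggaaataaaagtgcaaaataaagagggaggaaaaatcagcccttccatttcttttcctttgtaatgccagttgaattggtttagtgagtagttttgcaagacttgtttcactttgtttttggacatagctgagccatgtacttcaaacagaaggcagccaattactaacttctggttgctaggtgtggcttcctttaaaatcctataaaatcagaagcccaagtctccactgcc
ANXA5 (chr4:121696981-121697230, minus strand): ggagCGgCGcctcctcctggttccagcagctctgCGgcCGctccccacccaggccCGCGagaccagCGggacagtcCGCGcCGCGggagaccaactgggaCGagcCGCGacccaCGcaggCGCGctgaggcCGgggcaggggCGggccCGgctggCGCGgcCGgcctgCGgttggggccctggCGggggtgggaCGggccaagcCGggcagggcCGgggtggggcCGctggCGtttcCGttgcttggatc
The promoters of the members whose groups overlapped hold 28 CG pairs (ANXA2), 36 and 21 (ANXA4, which has 2 start sites listed), 19 and 10 (ANXA6) and 9, 22 and 5 (ANXA11). ANXA3 has 18 and ANXA7 20. Among members higher in knockout libraries the counts thus ran from 8 to 31, and the 2 lower members had 0 and 18. A count of CG pairs is a description of these windows and says nothing of what binds them.

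Libraries held 21533615 to 29095133 counted reads, and all 10 members passed the filter on low counts. PHF8 itself fell to 31.0%, 19.3% and 36.7% of its control mean in knockout libraries 1, 2 and 3 (adjusted p = 1.19e-04 by edgeR's quasi-likelihood test with Benjamini-Hochberg adjustment, as for all adjusted p-values below). Levels are in CPM, a gene's reads relative to the library's total after scaling by TMM factors, which correct for differences in library composition. Among the 14398 tested genes the adjusted p was under 0.05 for 59.7% (28.9% higher and 30.8% lower with PHF8-sgRNA), and 66.8% had groups that did not overlap. Scaled by library totals only, the median of all genes shifted by -0.17 on the log2 scale and 36.7% of called genes were higher instead of 48.4%. The renal carcinoma markers matched the label in part. PAX8, KRT8, KRT18, VIM and CDH2 were well above 100 CPM in every library, while CA9 and NDUFA4L2 stayed below 1 CPM. EPAS1 had 108 to 141 CPM, CDH6 41.4 to 64.5 CPM and PAX2 2.58 to 7.20 CPM. Of 9 tested renal markers 2 passed as higher (PAX8 and KRT18) and 1 as lower (PAX2), against 28.9% and 30.8% of all tested genes. KRT18 passed as lower instead once trends with transcript length and GC content were removed (log2 fold change -0.22). Squamous markers, listed because squamous epithelium is known for ANXA8, summed to 0.040 to 0.13 CPM in control and 0.040 to 0.33 CPM in knockout libraries, with 3 of 5 at 0 reads throughout. Immune markers summed to 0.40 to 0.56 and 0.48 to 0.62 CPM (4 of 6 at 0), endothelial markers to 2.05 to 2.32 and 2.96 to 4.52 CPM (1 of 5 at 0) and fibroblast markers to 3.99 to 4.28 and 0.73 to 1.58 CPM (0 of 5 at 0). Their part in the results below was not tested.

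The family as a whole took a near-constant share of the counted reads before TMM scaling. TMM factors were 1.05 to 1.07 in control and 0.94 to 0.96 in knockout libraries. In CPM the family's sum is therefore higher in knockout libraries, relative to control, than the shares below show. The 10 genes summed to 0.42%, 0.41% and 0.41% of reads in control libraries 1, 2 and 3 and 0.41%, 0.44% and 0.39% in knockout libraries 1, 2 and 3, and these ranges overlap. Inside that share the make-up differed. ANXA5 made up 18.8% to 19.2% of annexin reads in control and 28.6% to 30.1% in knockout libraries. ANXA1 made up 7.85% to 11.6% and 4.17% to 5.44%, and ANXA2 42.2% to 44.6% and 38.4% to 40.6%. The ANXA8 pair held 0.13% to 0.18% and 1.15% to 1.74%.

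Of the 10 members, 5 passed the threshold in the fit over all genes (3 higher, 2 lower), against 59.7% of all tested genes, and 6 had groups that did not overlap, against 66.8%. Since this contrast chose the family, nothing is read from these counts. Of the 5 members that passed, 2 also differed by more than 2-fold, and 23.4% of all tested genes met both conditions. The median log2 fold change of the members was 0.08, and that of all tested genes was -0.01. The widest differences were those of the ANXA8 pair, followed by ANXA1 and ANXA5 in opposite directions and by ANXA3 and ANXA7, and 4 members had overlapping groups.

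**Figure D1:**
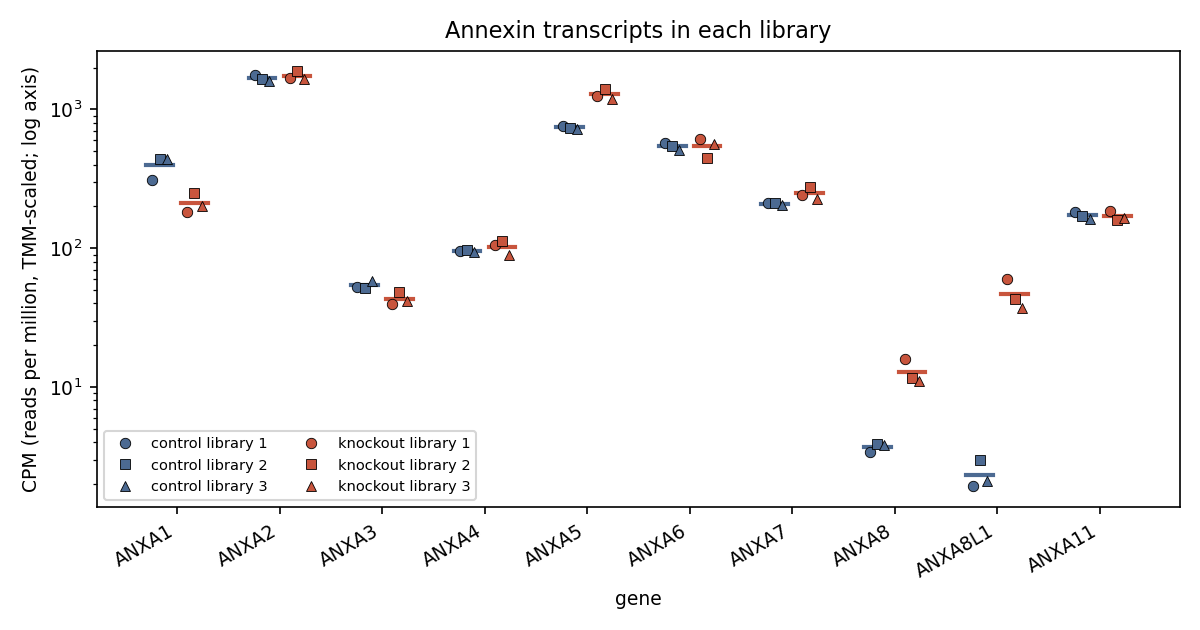
CPM of each annexin gene in each of the 6 libraries on a log axis, with control in blue, knockout in red and group means as bars. ANXA8L1 lies between 1.93 and 3.0 CPM in control and between 37.0 and 60.3 CPM in knockout libraries, while the points of ANXA2, ANXA4, ANXA6 and ANXA11 overlap.

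ANXA8L1 and ANXA8 encode annexin A8, a low-abundance annexin of late endosomes known from squamous epithelia. ANXA8L1 had 44, 75 and 56 reads in control libraries 1, 2 and 3 and 1447, 1072 and 1008 reads in knockout libraries 1, 2 and 3. As levels these were 1.93, 3.0 and 2.09 CPM against 60.3, 43.3 and 37.0 CPM. Every knockout library lay far above every control library, with knockout library 1 the highest. The log2 fold change was 4.32 (SE 0.24, n = 3 in each group), a 19.9-fold difference and rank 26 from the top among 14398 tested genes.

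ANXA8 itself had 77, 97 and 103 reads in control and 383, 288 and 302 reads in knockout libraries, or 3.38, 3.88 and 3.85 against 16.0, 11.6 and 11.1 CPM. The groups did not overlap, and knockout library 1 was the highest for this gene as it was for ANXA8L1. The log2 fold change was 1.80 (SE 0.18), a 3.47-fold difference. With an offset that removes trends with transcript length and GC content it was 1.26, and that of ANXA8L1 was 3.78. Summed into 1 gene, so that the split of reads does not enter, the pair had 5.31, 6.89 and 5.94 CPM in control and 76.2, 54.9 and 48.1 CPM in knockout libraries, with a log2 fold change of 3.30 (SE 0.20).

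The split of reads between the copies also differed. Of the pair's reads, the ANXA8L1 row held 36.4% (44 of 121; exact Clopper-Pearson 95% interval 27.8% to 45.6%), 43.6% (75 of 172; 36.1% to 51.4%) and 35.2% (56 of 159; 27.8% to 43.2%) in control libraries 1, 2 and 3. It held 79.1% (1447 of 1830; 77.1% to 80.9%), 78.8% (1072 of 1360; 76.6% to 81.0%) and 76.9% (1008 of 1310; 74.6% to 79.2%) in knockout libraries 1, 2 and 3. Intervals cover counting error only. The 3 knockout shares lay close together and apart from all control shares, whose intervals overlap each other. Since the ANXA8L1 row differed by more than the ANXA8 row, its share differs by construction. These are the counts that chose the family, so the shares are a description and carry no test. The annotation places 2 lncRNA genes over ANXA8L1 on its own strand, so their reads cannot be told apart from its own where exons overlap.

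**Figure D2:**
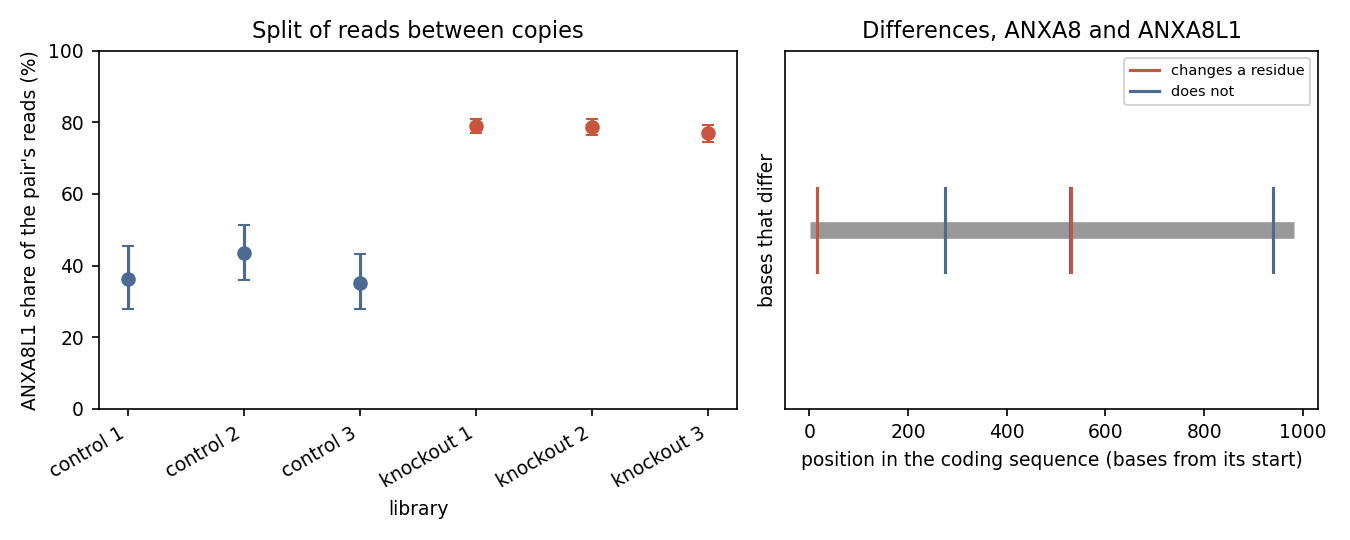
Left, the share of the reads of ANXA8 and ANXA8L1 that was counted to ANXA8L1 in each library, in percent with exact 95% intervals: 35.2% to 43.6% in control (blue) and 76.9% to 79.1% in knockout libraries (red). Right, the 5 bases that differ along the 981-base coding sequence (528 and 530 nearly touch), red where the amino acid changes.

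ANXA5 (chromosome 4, 121667946 to 121696995, minus strand) encodes annexin A5, which binds phosphatidylserine exposed on cell surfaces and is used as a stain for dying cells. Its levels were 764, 734 and 722 CPM in control and 1256, 1392 and 1195 CPM in knockout libraries. The groups were well apart, and the spread within control was small (coefficient of variation 2.91%) beside that within knockout (7.89%). The log2 fold change was 0.79 (SE 0.09), a 1.73-fold difference. Like the ANXA8 pair it kept its direction in all 15 other settings tried, from 0.62 with library totals only to 0.84 without knockout library 3.

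ANXA1 (chromosome 9, 73151865 to 73170393, plus strand) encodes annexin A1, or lipocortin, a glucocorticoid-induced protein that signals the end of inflammation through formyl peptide receptors. It had 312, 437 and 442 CPM in control and 183, 251 and 201 CPM in knockout libraries. Control library 1 lay below the other control libraries, and still above every knockout library. The log2 fold change was -0.91 (SE 0.16), and between -1.07 and -0.76 over the other settings.

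ANXA3 (chromosome 4, 78551747 to 78610451, plus strand), an annexin of neutrophil granules that is also present in epithelia, was lower by less. It had 52.3, 51.6 and 58.4 CPM in control and 39.3, 48.4 and 41.6 CPM in knockout libraries, with a log2 fold change of -0.33 (SE 0.11). The groups were separate by a narrow gap, between 48.4 and 51.6 CPM. In the fit over all genes ANXA3 passed the threshold, but not without control library 1, 2 or 3, knockout library 1 or knockout library 3. With an offset that removes trends with transcript length and GC content, the log2 fold change was -0.09 and did not pass.

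ANXA7 (chromosome 10, 73375101 to 73414076, minus strand) encodes synexin, an annexin that fuses secretory vesicles and binds the calcium sensor sorcin. It had 212, 212 and 203 CPM in control and 242, 278 and 227 CPM in knockout libraries, again without overlap. Its log2 fold change was 0.25 (SE 0.10). It missed the threshold, and passed it without knockout library 2 or knockout library 3, with median-ratio factors, with a stricter filter and with the offset.

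The member with the most reads had overlapping groups. ANXA2 (chromosome 15, 60347134 to 60402883, minus strand), which with S100A10 forms a complex at the plasma membrane that binds plasminogen and actin, had 1769, 1653 and 1603 CPM in control and 1684, 1874 and 1647 CPM in knockout libraries (log2 fold change 0.05, SE 0.09). Its direction changed with the setting, from -0.12 with library totals only to 0.21 with the length and GC offset.

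ANXA6 (chromosome 5, 151100706 to 151157815, minus strand), whose annexin core is duplicated and which acts in endosomes and cholesterol transport, had 577, 543 and 507 CPM in control and 611, 448 and 567 CPM in knockout libraries. Knockout library 2 was the lowest of all 6 and knockout library 1 the highest, so the group means, 542 ± 34.6 and 542 ± 84.4 CPM (SD, n = 3 each), were alike while the spread was not. The log2 fold change was 0.12 without knockout library 2. With the length and GC offset the log2 fold change was -0.39.

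ANXA4 (chromosome 2, 69644425 to 69827112, plus strand), an annexin of epithelial membranes, had 95.6, 96.3 and 93.9 CPM in control and 105, 113 and 88.7 CPM in knockout libraries (log2 fold change 0.10, SE 0.11). With the length and GC offset it lay at 0.64 and with library totals only at -0.06. AAK1 and 2 lncRNA genes are annotated over it on the other strand and 1 lncRNA gene on its own strand. The sources used here do not say whether the counting used strand, so reads of these genes and of ANXA4 cannot be told apart where exons overlap.

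ANXA11 (chromosome 10, 80150889 to 80205572, minus strand), whose long tail binds the calcium sensor ALG-2 and which tethers RNA granules to lysosomes, had 184, 171 and 164 CPM in control and 187, 159 and 165 CPM in knockout libraries (log2 fold change -0.02, SE 0.10). The knockout libraries lay on either side of the control mean, and the value ran from -0.19 with library totals only to 0.24 with the offset.

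**Figure D3:**
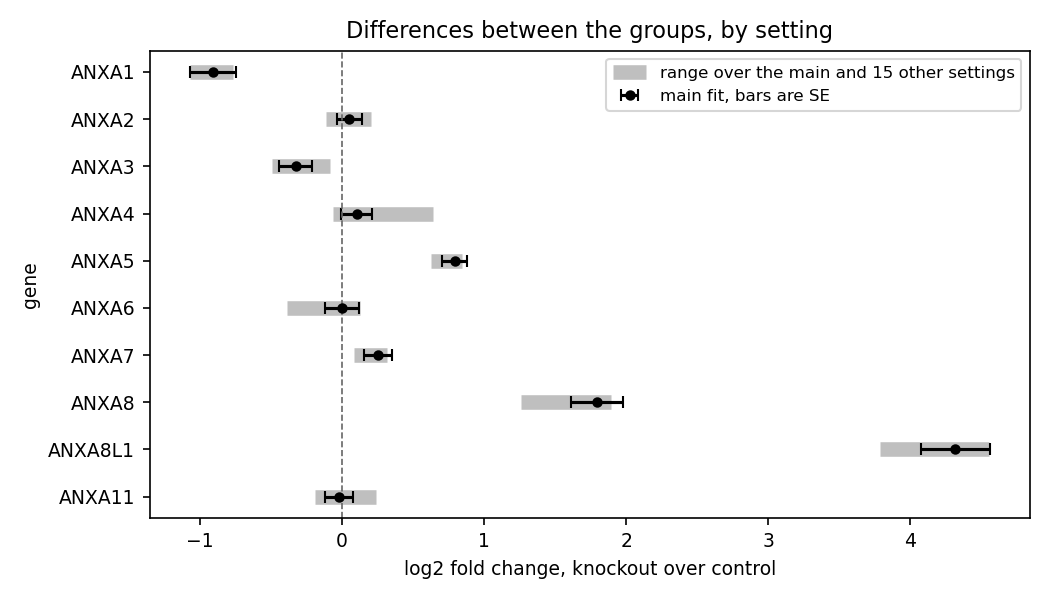
Log2 fold change of each annexin gene, knockout over control, as a point with its SE, over a grey bar that spans the values over 15 other settings. The bars of ANXA1, ANXA3, ANXA5, ANXA7, ANXA8 and ANXA8L1 stay on 1 side of 0, and those of ANXA2, ANXA4, ANXA6 and ANXA11 cross it.

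Levels of different genes can be compared only per length. Per kilobase of annotated exons, ANXA5 was highest in control cells with 253 ± 7.37 CPM per kilobase (SD, n = 3), followed by ANXA2 (145 ± 7.37), ANXA6 (98.5 ± 6.28), ANXA1 (89.1 ± 16.5) and ANXA7 (73.1 ± 1.70). ANXA11 (20.3 ± 1.2), ANXA3 (11.04 ± 0.76) and ANXA4 (8.61 ± 0.11) formed a lower tier, and ANXA8L1 (0.82 ± 0.20) and ANXA8 (0.75 ± 0.057) were lowest. The library values of ANXA6 and ANXA1, of ANXA1 and ANXA7, and of ANXA8L1 and ANXA8 overlapped, so these neighbours in the order were not separate by this length. In knockout cells ANXA8L1 had 16.4 ± 4.2 CPM per kilobase, and its values overlapped those of ANXA11 (20.0 ± 1.71). ANXA1 had 47.5 ± 7.95 there and stood below ANXA7 (87.0 ± 9.12) without overlap. The lengths were not reduced for the stretches that ANXA8 and ANXA8L1 share. How the levels of this pair compare with those of other members is therefore uncertain.

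The order depended on the length used. With the length of the main (MANE Select) transcript, a choice added after seeing the data, ANXA2 was first with 1078 ± 54.9 CPM per kilobase and ANXA5 next with 452 ± 13.2 in control cells. The annotated exons of ANXA2 span 11574 bases and its main transcript 1554. With the same lengths ANXA1 (283 ± 52.5) stood above ANXA6 (188 ± 11.96) in control cells without overlap, and ANXA11 lay below ANXA3 and ANXA4. In knockout cells ANXA1 (151 ± 25.3) then stood above ANXA7 (102 ± 10.7), the reverse of their order by annotated exons, and with the longest transcript their values overlapped. ANXA8 and ANXA8L1 were the lowest pair in control cells by every length tried. Their own order there also changed, with ANXA8 above ANXA8L1 without overlap by the other lengths. The levels were 1.70 ± 0.13 and 1.08 ± 0.27 with the longest transcript, and 1.83 ± 0.14 and 1.23 ± 0.30 with the MANE Select transcript.

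**Figure D4:**
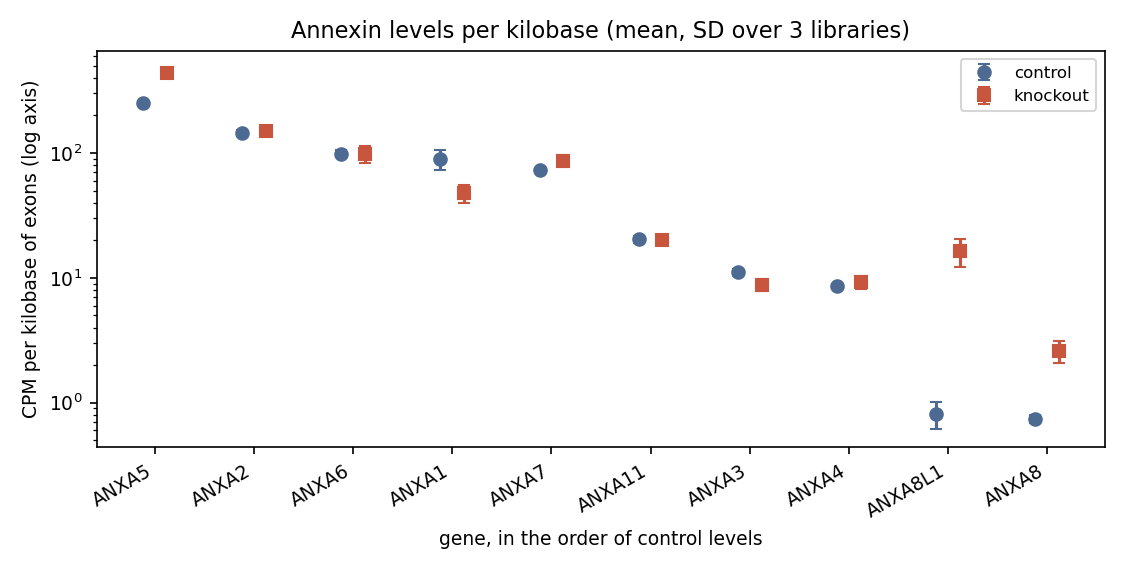
Level of each annexin gene per kilobase of annotated exons on a log axis, mean and SD over 3 control (blue) and 3 knockout libraries (red), ordered by the control level. ANXA8L1 lies at 0.82 in control and 16.4 in knockout cells, in the range of ANXA11. Its place among other members is uncertain, because it shares most of its sequence with ANXA8.

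The other symbols that begin with ANXA showed little. ANXA9, ANXA10 and ANXA13 had 0 to 17 reads in any library and were not tested. ANXA2P2, the processed pseudogene of ANXA2, had 78.4 ± 5.83 CPM in control and 80.0 ± 9.17 CPM in knockout libraries (mean ± SD of 3; edgeR adjusted p = 0.84, log2 fold change 0.03), and its reads were 4.32% to 4.81% of those of ANXA2 in each library. With the length and GC offset it passed as lower (edgeR adjusted p = 0.0014, log2 fold change -0.38). ANXA2P1 and ANXA2P3 had 0 to 22 reads, and ANXA2R, a small gene named as an annexin A2 receptor, had a log2 fold change of -0.06 (edgeR adjusted p = 0.85).

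S100 proteins are small calcium sensors that bind the N-terminal tails of annexins. Of 5 tested partner genes 4 passed as higher and 0 as lower, with a median log2 fold change of 0.62. Of all tested genes 28.9% were higher, and the median over all tested genes was -0.01. This list and those below were chosen with earlier results of these data known, so such counts are not read as an excess. S100A4 did not pass (edgeR adjusted p = 0.062) and its groups overlapped. S100A10, the partner of ANXA2, had 397, 379 and 367 CPM in control and 527, 611 and 529 CPM in knockout libraries, without overlap (edgeR adjusted p = 9.45e-04, log2 fold change 0.54). ANXA2, the other part of that complex, had overlapping groups (above). S100A11, the partner of ANXA1, rose from 437 ± 40.1 to 657 ± 34.8 CPM and S100A6, which binds several annexins, from 608 ± 53.9 to 935 ± 75.7 CPM (mean ± SD of 3; edgeR adjusted p = 7.47e-04 and 7.11e-04). With the length and GC offset 1 of the 5 passed, S100A10 (log2 fold change 0.21, edgeR adjusted p = 0.023), and the list's median was 0.14. S100A11 (0.07), S100A6 (-0.01) and S100A1 (0.95) then missed the threshold, with edgeR adjusted p = 0.37, 0.90 and 0.10. S100A1 had 3 to 24 reads and also lost its call when control library 1 or 2, or knockout library 1, was left out. S100B and S100A12 had 0 reads.

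Among the penta-EF-hand proteins, calcium sensors related to calpain, 4 of 7 passed as higher and 2 as lower, against 28.9% and 30.8% of all tested genes. The list's median was 0.23. The count of higher genes was 2 when control library 2 or 3, or knockout library 1, was left out, and with the replicate block or no filter, since the small differences of the calpain genes CAPN2 (0.25) and CAPNS1 (0.23) then missed the threshold. PDCD6, which encodes ALG-2, the partner of ANXA7 and ANXA11, rose from 81.9 ± 7.21 to 135 ± 17.7 CPM (mean ± SD of 3; edgeR adjusted p = 8.05e-04, log2 fold change 0.72). SRI, which encodes sorcin, the partner of ANXA7, fell from 164 ± 9.24 to 120 ± 11.8 CPM (edgeR adjusted p = 0.0040, log2 fold change -0.46). The calcium sensor gene PEF1, which dimerises with ALG-2, rose (0.70; edgeR adjusted p = 1.56e-04), a call lost with the offset (0.11), and GCA, which encodes grancalcin, fell (-1.1, or -0.55 with the offset; edgeR adjusted p = 9.59e-04). With library totals only the list had 2 higher and 3 lower, and with the offset 2 higher and 4 lower (median -0.31). CAPNS1 was among the genes lower with the offset (log2 fold change -0.42, edgeR adjusted p = 6.73e-04).

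Genes of plasma membrane repair, in which annexins seal the wound, were mixed. Of 14 tested 5 were higher and 6 lower, against 28.9% and 30.8% of all tested genes. The list's median was 0.22, or -0.19 with the offset. DYSF, the membrane repair protein dysferlin, fell from 8.14 ± 0.90 to 1.31 ± 0.86 CPM (mean ± SD of 3; edgeR adjusted p = 3.84e-04, log2 fold change -2.61). EHD2, an ATPase of caveolae, had 177, 168 and 163 CPM in control and 74.1, 53.3 and 75.9 CPM in knockout libraries (-1.32; edgeR adjusted p = 7.06e-05). AHNAK, a giant scaffold that binds the ANXA2 complex and was named here for that link after its values were seen, had 2207, 2312 and 2239 CPM in control and 1441, 479 and 1302 CPM in knockout libraries. Knockout library 2 was far below the others, and the fall of AHNAK (-1.07; edgeR adjusted p = 0.018) was lost without control library 1 and with the offset (-0.41, edgeR adjusted p = 0.068). PDCD6IP, which encodes the ALG-2 partner ALIX, fell (-0.85; edgeR adjusted p = 1.30e-04), a call lost with the offset (-0.10), while EHD1, an endosomal relative of EHD2, rose (0.63; edgeR adjusted p = 9.06e-04). TRIM72 had 0 reads.

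The plasminogen system meets the ANXA2 complex on the cell surface. Of 7 tested genes 5 passed as higher and 0 as lower (median 0.58, and 6 higher and 0 lower with the offset). In the main fit 28.9% of all tested genes were higher. This list too was chosen with earlier results of these data known, so its count is not read as an excess. PLAT, tissue plasminogen activator, and SERPINB2 did not pass (edgeR adjusted p = 0.40 and 0.054), and the groups of both overlapped. PLAUR, the urokinase receptor, had 149, 139 and 135 CPM in control and 241, 273 and 235 CPM in knockout libraries (edgeR adjusted p = 1.24e-04, log2 fold change 0.82, or 0.22 with the offset). PLAU, urokinase itself, had 147, 135 and 135 CPM against 246, 205 and 206 CPM (0.66; edgeR adjusted p = 5.98e-04; 0.23 with the offset). SERPINE2, which encodes protease nexin-1, an inhibitor of thrombin and urokinase, rose by 0.58 on the log2 scale, or 1.26 with the offset (edgeR adjusted p = 9.19e-04). PLG, plasminogen itself, had 0 reads.

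Receptors of annexin A1 and the phospholipases it was first known to restrain were expressed at low levels. FPR1 had 4.48, 4.40 and 4.22 CPM in control and 13.9, 10.7 and 11.7 CPM in knockout libraries, without overlap (edgeR adjusted p = 6.79e-05, log2 fold change 1.47). FPR2 had 0 to 5 reads and FPR3 0 reads. Of the cytosolic phospholipase genes, PLA2G4C rose (1.81; edgeR adjusted p = 1.03e-04) and PLA2G4A fell (edgeR adjusted p = 0.0048, a call lost with DESeq2). PLA2G4A had 27, 46 and 53 reads in control and 0, 0 and 13 in knockout libraries. PLA2G6 rose from 1.58 ± 0.66 to 3.67 ± 0.29 CPM (mean ± SD of 3; edgeR adjusted p = 0.0045). Of the 5 tested genes of this list 3 passed as higher and 2 as lower (median 1.23). The other lower gene was PTGS2, neither a receptor nor a phospholipase gene (log2 fold change -2.08, edgeR adjusted p = 0.0050). Over all 7 lists of annexin relatives and partners 22 of 44 tested genes passed as higher and 13 as lower, or 17 and 16 with the offset. In the main fit 28.9% of all tested genes were higher and 30.8% lower, and the lists were chosen with earlier results of these data known.

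The genes next to the ANXA8 copies were examined in the same fit. Of 68 symbols within 1000000 bases of either copy 21 were tested, 4 passed as higher and 6 as lower, with a median log2 fold change of -0.07. These 10 calls among 21 compare with 59.7% called over all tested genes. GPRIN2, a regulator of neurite growth 149952 bases from ANXA8L1, had 289, 248 and 282 reads in control and 1027, 433 and 912 reads in knockout libraries (edgeR adjusted p = 0.0016, log2 fold change 1.5). LINC00842, a long noncoding RNA 6578 bases from ANXA8L1, had 23 to 43 reads in control and 41 to 66 in knockout libraries (0.71; edgeR adjusted p = 0.039), a call lost in 7 of 15 other settings. TIMM23 and ARHGAP22 rose by 0.83 and 0.80, or 0.45 and 0.27 with the offset (edgeR adjusted p = 3.95e-04 and 1.38e-04). ZNF488, a transcription factor gene 75869 bases from ANXA8, fell from 7.03 ± 1.27 to 2.28 ± 0.74 CPM (mean ± SD of 3; edgeR adjusted p = 5.88e-04, log2 fold change -1.62). MAPK8 (-0.78, but 0.03 and not called with the offset), ZFAND4 (-1.08), FAM21C (-0.67), LOC102724593 (-1.13) and FAM35DP (-1.16) also passed as lower. The last 2 had 4 to 22 reads in any library and lost their calls in 5 and 7 other settings. Several gene families of this region are known to have near-identical copies, so counts of such genes are uncertain in the way those of the ANXA8 pair are.

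**Figure D5:**
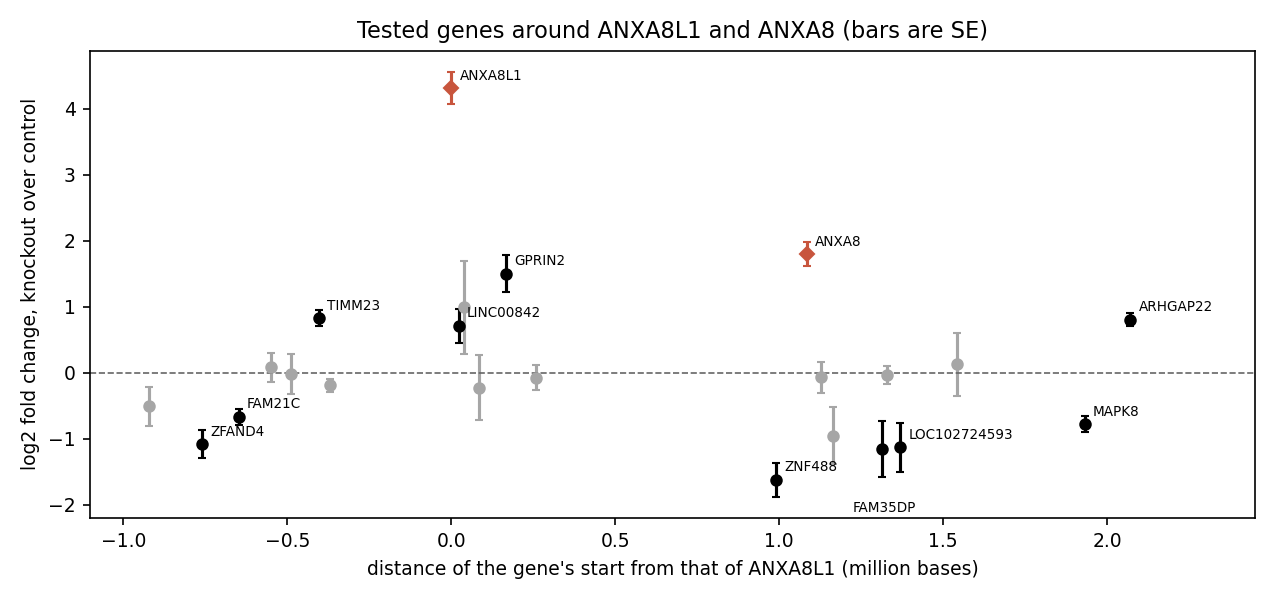
Log2 fold change, knockout over control, with SE of the 21 tested genes around ANXA8L1 and ANXA8 (red) by distance from the start of ANXA8L1 in megabases, black where the gene passed the test. GPRIN2 at 1.5 and ZNF488 at -1.62 lie furthest from 0 among the neighbours, on opposite sides.

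The genes most like ANXA8L1 across the 6 libraries were sought by the distance between log2 CPM profiles centred on each gene's mean. Among 14397 genes the nearest were MAL (distance 0.50), QPRT (0.60), IRF8 (0.71), MYH13 (0.73) and PLBD1 (0.75), against a median distance of 5.37. The order of these genes describes 6 libraries, and all 5 share with ANXA8L1 a wide difference between the groups. MAL, a lipid raft protein of polarised epithelia, had 3, 5 and 3 reads in control and 115, 107 and 73 reads in knockout libraries. QPRT, an enzyme of NAD synthesis, had 340, 404 and 418 reads against 7959, 8099 and 8330, or 14.9, 16.2 and 15.6 CPM against 331, 327 and 306 CPM. In CPM the lowest knockout value was that of library 3 for ANXA8L1, MAL, QPRT, IRF8 and PLBD1, and that of library 2 for MYH13. These genes were chosen by likeness over the same libraries, so a shared order is not read as a further likeness.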

How the data were processed

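Gene counts of 6 RNA-seq libraries were used as deposited by the authors, who mapped reads to GRCh38 with HISAT2 2.0.4 and counted them per gene with HTSeq, per the submitters' processing notes and the series' design text. The annotation release, strand setting and read length are not given by those sources. The count table named 54261 genes by symbol, and 0 other columns of per-sample values were left unused. Libraries held 21533615 to 29095133 counted reads. From these counts, edgeR 4.0.16 (R 4.3.3, limma 3.58.1) was fitted to all genes passing its expression filter (14398). It used TMM factors, a prior count of 0.125 and an adjusted p threshold of 0.05 over all tested genes. The test was tested on simulated data in which only a small part of the genes changed. That run does not show how the test performs where 59.7% of genes pass, as here. DESeq2 1.42.0, limma-voom, other scalings and filters, a replicate block, each library left out, a length and GC offset (values for 91.6% of tested genes) and summed copies were the alternatives. GENCODE v44 positions and transcripts on GRCh38 were joined by symbol (34145 symbols, with 1521 more by an older symbol and 18595 unmatched). Members and gene lists were chosen with earlier results of these data known. Named were all members, other ANXA symbols, up to 4 called genes of each list with the smallest p, the 10 neighbours with the smallest p, and the 5 genes nearest to ANXA8L1. Marker lists were renal carcinoma, squamous, immune, endothelial and fibroblast genes. A gene that this rule names is not reported here.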

Additional observations from a re-analysis of the deposited data

How the results depend on the processing

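Of 153 member fold changes recomputed under other settings, 137 stayed within 1 SD between libraries and 16 moved further, 6 of them with library totals only, 8 with the length and GC offset and 2 with ANXA8 and ANXA8L1 summed. With the offset 8 members passed the threshold instead of 5 (ANXA2, ANXA4, ANXA6 and ANXA7 in, ANXA3 out), while 8418 of 14398 genes passed over the whole table instead of 8593, and the cause was not tested. Leaving out each library in turn gave 4 to 6 members, 30 to 36 related genes and 7170 to 9542 genes over the whole table. The 9542 were found without knockout library 2, which lay apart from its replicates over the tested genes as a whole. A chi-square comparison of counts gave 74.3 and 57.8 per degree of freedom for it against knockout libraries 1 and 3. Between knockout libraries 1 and 3 the value was 11.1. The median control level per kilobase over the members was 46.7 CPM with annotated exons, 55.2 with the longest transcript and 61.7 with the MANE Select transcript, an alternative chosen after seeing the data; the shorter lengths give the higher levels by construction. Between libraries with the same number, deviations from the group means correlated at 0.015, -0.036 and 0.0057. Such values cannot show whether these libraries shared a culture or a batch, which the labels do not say. With the replicate number as a block, 4 members passed (ANXA3 did not), and 8308 genes over the whole table instead of 8593. ANXA8 and ANXA8L1 had 44 to 103 reads in each control library, the fewest among the members, which limits how precisely their control levels are counted.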

Other observations

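Copines, which like annexins bind membranes when calcium rises but through C2 domains, were mixed. Of 6 tested genes 1 passed as higher and 3 as lower, against 28.9% and 30.8% of all tested genes. The median log2 fold change was -0.25 against -0.01 over all genes. CPNE3 had 187, 231 and 225 CPM in control and 92.3, 97.3 and 102 CPM in knockout libraries, without overlap (edgeR adjusted p = 4.51e-05, log2 fold change -1.14, or -0.52 with the length and GC offset). CPNE8 fell from 13.6 ± 3.40 to 4.80 ± 0.78 CPM (mean ± SD of 3; edgeR adjusted p = 3.86e-04). CPNE2 fell less (-0.39, or -0.69 with the offset; edgeR adjusted p = 0.019), and missed the threshold when control library 1 or 2, or knockout library 3, was left out. CPNE7 was the gene that rose, from 4, 4 and 7 reads to 52, 34 and 42 reads (edgeR adjusted p = 1.12e-04).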
